A study of Mus musculus with 28 samples.

Results

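Neat1 and Malat1 are neighbouring genes for nuclear long noncoding RNAs on mouse chromosome 19. Their nascent RNA was followed here in mouse embryonic stem cells (mESCs) with and without Elongin A (EloA). This factor is known to stimulate elongation by RNA polymerase II (Pol II) in vitro, while the study reports a limited effect on elongation rate in these cells. They are 2 of the 24984 genes in the deposited tables. The pair was chosen by gene name, with a remark that Neat1 was lower in EloA null cells during recovery from a transcription block. The comparison of genotypes in recovery is therefore given for both genes as a description with no test.

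The assay was Bru-seq. A brief supply of 5-bromouridine (BrU) marks RNA as it is made, and the marked RNA is then pulled down with an antibody and sequenced. In the study, mature mRNA was depleted with oligo d(T) beads before the pulldown and ribosomal RNA after it. BrU-labelled Drosophila RNAs were added to each sample, but no scaling to them was done here. WT and EloA null mESCs, grown with LIF and 2i on embryonic fibroblast feeders and then freed of them, received 2 mM BrU for 10 min without other treatment, which is called steady state. In the other 2 conditions the cells were held for 60 min in 1 µM flavopiridol (FP), an inhibitor of the kinase that releases paused Pol II, washed, and given 2 mM BrU for 5 min or 10 min of recovery. Each genotype has 2 libraries per condition, 12 in all. The labels name the line as CCE28 in the growth conditions and as CJ7 in the treatment, and the sources used here do not say whether the null line is 1 clone. The first steady-state library that its title calls EloA null is listed as wild type under genotype, and its title decided its group. The study describes its Bru-seq duplicates as independent experiments, while the labels do not tie the libraries to separate cultures, so a p-value measures the spread between these libraries.

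Eloa itself did not separate the genotypes by loss of signal. Its nascent RNA in steady state was 1.18 and 1.16 RPKM (reads scaled to gene length and library size) in the WT libraries and 1.96 and 1.89 RPKM in those labelled EloA null, and it was also higher in the latter at 5 and 10 min. The deleted part of the gene is not given in the sources used here, so these values check no label. The genotypes are therefore called WT and labelled EloA null. Library sizes, recovered from the steps between RPKM values, ran from 9857527 to 28547356 reads. Pluripotency markers had summed levels of 205 to 344 RPKM. Of 15 feeder fibroblast markers, 2 to 4 passed 0.5 RPKM in a condition, their sums ran from 11.4 to 16.5 RPKM, and the defining markers Dcn and Lum were at or near 0, while Col1a1, also defining, had group means of 0.467 to 1.23 RPKM.

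The long form of Neat1 is the RNA on which paraspeckles are built, nuclear bodies that hold RNA-binding proteins such as NONO and SFPQ. Malat1 gathers in nuclear speckles, which store splicing factors, and is among the most abundant noncoding RNAs of many cell types. Neither long RNA ends in the usual way: RNase P cuts at a tRNA-like fold, the 3′ end left behind is shielded by a triple helix of U-rich and A-rich runs, and from Malat1 the fold is released as the small mascRNA after trimming by ELAC2. A short form of Neat1 ends instead at a polyadenylation site.

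In GRCm38, the assembly behind mm10, both genes lie on the minus strand. RefSeq places the long Neat1 transcript at chr19:5824708-5845478 and Malat1 at chr19:5795690-5802672, so that Malat1 begins 22035 bases past the end of Neat1. The 3′ ends are shown because they are the feature that sets these RNAs apart, and because they can be compared base by base. The 100 bases that end long Neat1 (chr19:5824708-5824807) and the 100 bases of Malat1 just before mascRNA (chr19:5795982-5796081) are printed 5′ to 3′ on the minus strand, and the capitals mark runs of 10 or more bases that occur in both.
Neat1 3′ end: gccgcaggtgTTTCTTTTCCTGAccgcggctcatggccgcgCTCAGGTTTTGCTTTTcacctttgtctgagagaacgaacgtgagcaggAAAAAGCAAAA
Malat1 3′ end: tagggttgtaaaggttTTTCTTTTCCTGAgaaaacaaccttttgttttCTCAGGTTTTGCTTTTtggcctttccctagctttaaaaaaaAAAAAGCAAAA

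The shared runs are 13, 16 and 11 bases long and stand in the same order, 40 of 100 bases in each window. The first and the second are rich in T (U in the RNA) and the last is rich in A. Outside these runs the windows differ in base composition, with A and T at 33.3% of the bases in Neat1 and 66.7% in Malat1.

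What follows each end was compared in the same way. RefSeq annotates Mascrna at chr19:5795924-5795981, 58 bases within the Malat1 transcript. Beside it stand the 58 bases that follow Neat1 (chr19:5824650-5824707). Capitals mark shared runs of 7 or more bases.
mascRNA: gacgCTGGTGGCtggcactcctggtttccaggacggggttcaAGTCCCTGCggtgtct
after Neat1: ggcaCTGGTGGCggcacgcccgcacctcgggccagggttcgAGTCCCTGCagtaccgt
The runs are 8 and 9 bases long. The first starts at the same base of each sequence, and the second starts at base 43 of mascRNA and base 42 of the bases after Neat1.

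The short Neat1 transcript (chr19:5842296-5845480) covers 15.3% of the long one from nearly the same start. Its last 60 bases are shown because they hold the polyadenylation signal AATAAA, in capitals, whose first base is base 31 counted back from the end.
Neat1 short form, 3′ end: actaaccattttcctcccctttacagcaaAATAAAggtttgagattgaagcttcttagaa
Of the 60-base windows of chromosome 19, 4.45% hold AATAAA on that strand. The letters do not occur in either 100-base window above.

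The RPKM of Neat1 gave whole read numbers in 12 of 12 libraries with the length of the long form, 20771 bases, and in 0 of 12 with the 3185 bases of the short form. Its values therefore stand for the whole long transcription unit, which both forms share in part, and say nothing of the balance between them. Malat1 came out whole with 6983 bases and Mascrna with 58, each in 12 of 12 libraries. Neat1 rested on 1620 to 6344 reads per library, Malat1 on 14332 to 60870 and Mascrna on 24 to 115. In bulk RNA a change in the RNA made per cell and a change in the number of cells making it cannot be told apart.

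In steady state Malat1 was the far more abundant nascent RNA and was lower in the libraries labelled EloA null, whereas Neat1 hardly differed. Malat1 measured 125 and 124 RPKM in WT and 88.7 and 88.3 RPKM in the libraries labelled EloA null. Replicates lay within 2 RPKM of each other and the genotypes did not overlap, which also held, in the lower direction, for 21.4% of the 11347 expressed genes. Genes counted as expressed had a mean above 0.5 RPKM in either genotype. The null mean was 28.9% below the WT mean, a log2 difference of −0.49, and 2.85% of expressed genes had a lower ratio. By limma on log2(RPKM + 0.1), the difference was −0.49 (SE 0.11, adjusted p = 0.158 by the Benjamini-Hochberg method over all expressed genes). Malat1 thus did not pass the test. Nor did any other gene, with 0 of 11347 called (0%) and 2083 at an unadjusted p under 0.05. Left without the library whose labels disagree, Malat1 gave −0.49 (limma adjusted p = 0.334).

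Neat1 measured 6.42 and 6.23 RPKM in WT and 6.44 and 6.91 RPKM in the libraries labelled EloA null. The lowest null value lay just above the highest WT value, as it did for 32% of expressed genes in that direction. The limma difference was 0.08 (SE 0.09, adjusted p = 0.681), and 56% of expressed genes had a lower ratio of means. Without the library in doubt it was 0.13 (limma adjusted p = 0.496). Mascrna, on 24 to 56 reads, measured 32.5 and 34.6 RPKM in WT against 23.1 and 14.8 RPKM, and its limma difference was −0.85 (SE 0.24, adjusted p = 0.188). Reads of uncut Malat1 RNA also cover these 58 bases, so that the cut product and its precursor cannot be told apart.

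**Figure D1:**
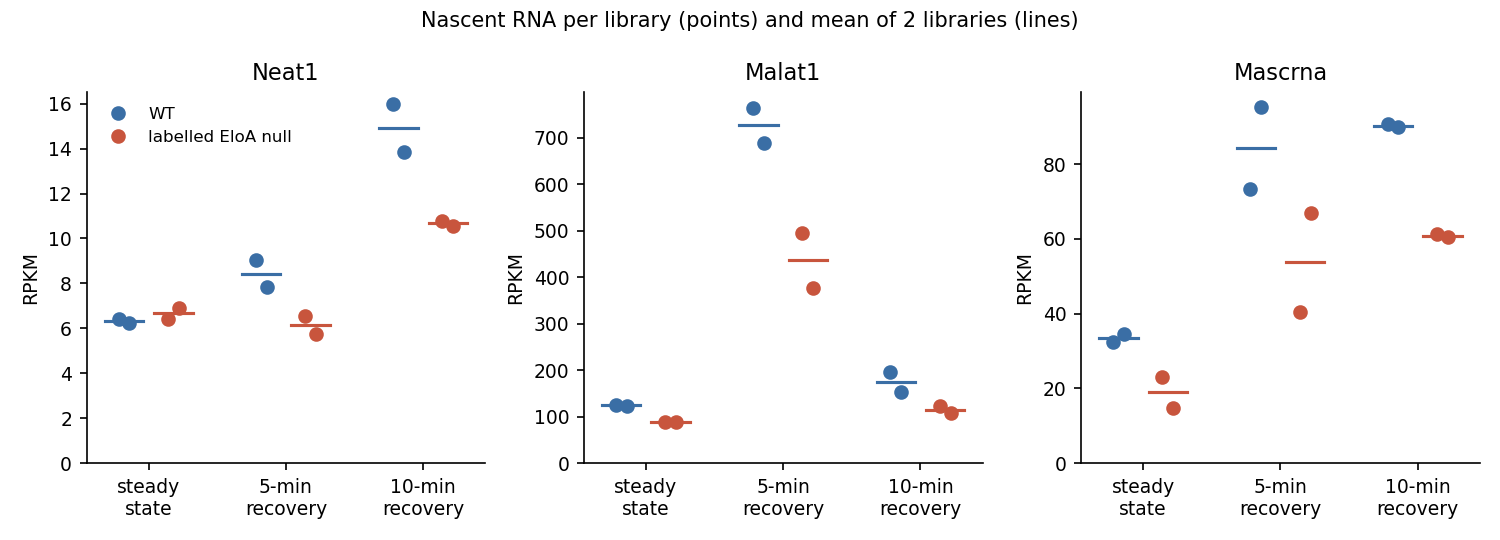
Nascent RNA of Neat1, Malat1 and Mascrna in RPKM (vertical axes start at 0 and differ between panels) in steady state and after 5 and 10 min of recovery; points are libraries, lines are means of 2, WT in blue and labelled EloA null in red. Malat1 peaks at 5 min, at 376 to 764 RPKM, and Neat1 is highest at 10 min, at 10.6 to 16 RPKM. In recovery all WT points of a gene and time lie above the null points. The nearest as a ratio are those of Mascrna at 5 min, with 73.5 against 66.9 RPKM.

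After release from FP the pair took different courses. Malat1 stood highest at 5 min, at 764 and 688 RPKM in WT and 496 and 376 RPKM in the libraries labelled EloA null, and was back at 108 to 196 RPKM at 10 min. In all 4 libraries at 5 min it ranked 2nd of the 8985 expressed genes, behind Rn45s, the ribosomal RNA precursor transcribed by Pol I. In the first of these WT libraries, Malat1 alone took 0.534% of the reads (95% Wilson interval 0.529 to 0.538, counting error only). Neat1 climbed less and later. It measured 9.04 and 7.82 RPKM in WT at 5 min and 16 and 13.8 RPKM at 10 min. In the libraries labelled EloA null it measured 6.55 and 5.73 RPKM at 5 min, against 6.44 and 6.91 RPKM in steady state, and 10.8 and 10.6 RPKM at 10 min.

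RPKM is a share of its library, the 3 tables were made separately, and the BrU pulse was shorter in the 5-min condition, so the ratio of recovery to steady state is relative to the other genes of each library. Malat1 stood at 5.83 ± 0.431 (SD, n = 2) times its steady-state mean in WT at 5 min and at 1.40 ± 0.244 times at 10 min. The 5-min value was the 14th largest of 10796 genes expressed in WT in steady state, whose median was 0.631. Among 1055 genes of similar length, 0.75 to 1.33 times that of Malat1, the median was 0.813 and 1 gene had a larger ratio. Spliced genes among them appear to be measured on introns and Malat1 on its whole length, so these ranks set unlike measures side by side. In the libraries labelled EloA null the ratio was 4.92 ± 0.956 at 5 min, 24th of 11130 genes, and 1.30 ± 0.118 at 10 min. At 10 min Malat1 no longer stood out, since 617 of the 1055 genes of similar length had a larger ratio in WT.

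Neat1 showed the reverse order. Its ratio to steady state in WT was 1.33 ± 0.136 at 5 min and 2.36 ± 0.241 at 10 min, against medians of 0.529 and 1.46 in 1870 genes of similar length. It thus lay above 89.1% of those genes at 5 min and above 80.4% at 10 min, with the same limit for spliced genes as above. In the libraries labelled EloA null the ratio was 0.919 ± 0.0866 at 5 min and 1.60 ± 0.0244 at 10 min, above 79.1% and 56.2% of 1903 genes of similar length.

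**Figure D2:**
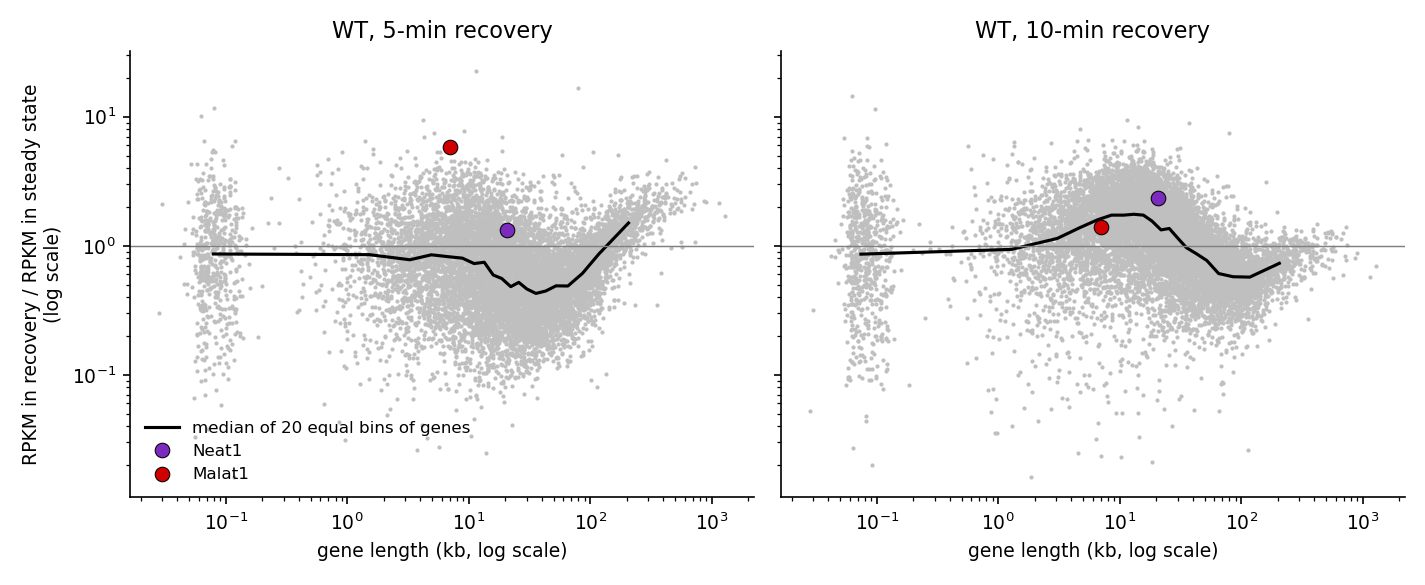
RPKM in recovery divided by RPKM in steady state (log scale) against gene length (kb, log scale) for genes expressed in WT in steady state, at 5 min (left) and 10 min (right); grey points are genes, the black line joins medians of bins with equal numbers of genes, and the horizontal line marks no change. Malat1 (red) lies above nearly all genes of its length at 5 min, at 5.83, and close to the black line at 10 min, at 1.40, whereas Neat1 (violet) moves from 1.33 to 2.36.

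The ratio of Neat1 to Malat1 within a library does not depend on how libraries or tables were scaled. In steady state Neat1 stood at 5.12% and 5.03% of the Malat1 level in WT and at 7.26% and 7.83% of it in the libraries labelled EloA null. At 5 min it was 1.18% and 1.14% in WT and 1.32% and 1.52% in the latter. At 10 min it was 8.16% and 9.03% in WT and 8.81% and 9.80% in the latter. On the log2 scale the ratio in WT differed from steady state by −2.13 (SE 0.03) at 5 min and by 0.76 (SE 0.07) at 10 min. In the libraries labelled EloA null it differed by −2.41 (SE 0.12) and by 0.30 (SE 0.09). Libraries of the conditions did not overlap in any of these 4 comparisons, and for other gene pairs this was not counted. The two-sided exact permutation test gave p = 0.33 for each of the 4 comparisons, also after adjustment over them. That is the smallest that 2 libraries against 2 can give, so the test cannot decide. The recovery values of Neat1 that were known when it was chosen also enter these ratios.

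The genotypes were then set side by side in recovery, which is the contrast behind the choice of Neat1. At 5 min Neat1 had a mean of 8.43 ± 0.861 RPKM in WT and 6.14 ± 0.578 RPKM in the libraries labelled EloA null (SD, n = 2), 27.2% lower. At 10 min the means were 14.9 ± 1.52 and 10.7 ± 0.163 RPKM, 28.5% lower. The log2 differences were −0.46 and −0.48. The genotypes did not overlap at either time, as was the case in the lower direction for 25% of 8985 expressed genes at 5 min and 21.8% of 10241 at 10 min, and ratios below that of Neat1 were found for 10.9% and 4.04% of these genes. Neat1 did not reach a 1.5-fold difference.

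Malat1 was lower by more. Its means were 726 ± 53.6 RPKM in WT and 436 ± 84.6 RPKM in the libraries labelled EloA null at 5 min, 39.97% lower, and 175 ± 30.4 and 115 ± 10.4 RPKM at 10 min, 34.1% lower. The log2 differences of −0.74 and −0.60 lie past 1.5-fold without overlap. In the lower direction 4.91% of expressed genes did so at 5 min (441 genes, with 392 in the higher direction, or 344 and 498 with each library centred on its median gene), and 2.25% at 10 min (230 and 863, or 345 and 598 centred). Ratios below that of Malat1 were found for 4.43% and 2.79% of genes. Malat1 was lower without overlap in all 3 conditions, Neat1 in the 2 recovery conditions. The share of all expressed genes that were lower without overlap in several conditions at once was not counted. The median log2 ratio over all expressed genes was 0.04, −0.06 and 0.06 in steady state, at 5 min and at 10 min.

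**Figure D3:**
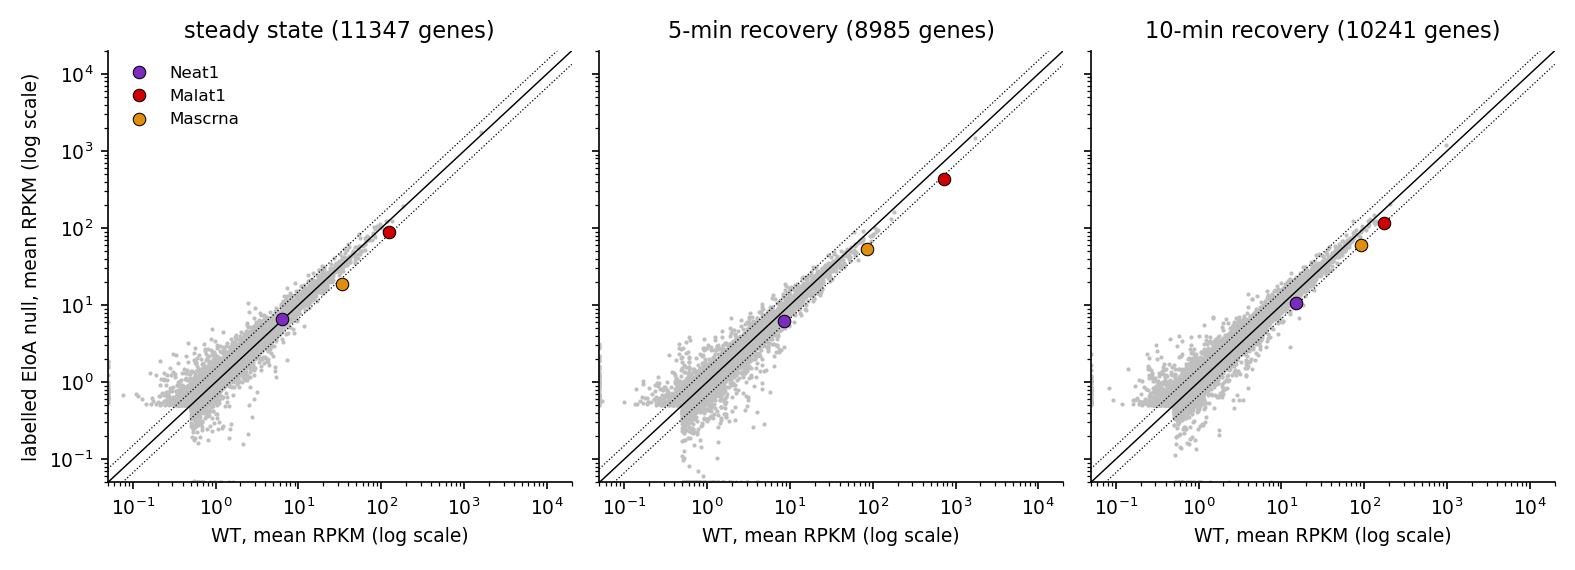
Mean RPKM in the libraries labelled EloA null against mean RPKM in WT (both log scales) for expressed genes in each condition; the solid line marks equal values, the dotted lines a 1.5-fold difference, and means under 0.05 RPKM are drawn at the axis. Neat1 (violet) lies on the solid line in steady state, at 6.32 and 6.68 RPKM, and below it in recovery, while Malat1 (red) lies below it in all 3 conditions and near the upper end of the range.

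The expressed flanking genes reported here had group means of 0.43 to 4.83 RPKM, below those of Neat1. Of the RefSeq genes within 100 kb, 13 besides the pair and Mascrna were considered, of which 11 are in the tables and 5, 4 and 5 were expressed in steady state, at 5 min and at 10 min. None of these passed 1.5-fold without overlap in either direction. Leaving the fold aside, 3 of 5 lay higher without overlap in steady state (32% of all expressed genes), 0 of 4 at 5 min (15.4% of all) and 3 of 5 at 10 min (33.5% of all), and 0 lay lower. Frmd8, an expressed gene 5494 bases before the start of Neat1, measured 1.60 and 1.49 RPKM in WT and 1.62 and 1.96 RPKM in the other genotype in steady state. Its log2 difference was 0.21, −0.02 and 0.47 in the 3 conditions. Dpf2, Pola2 and Map3k11 had 0.07 to 0.30 in steady state and at 10 min, and at 5 min Dpf2 had 0.02 and Pola2 −0.07. Fam89b, at levels of 0.43 to 0.80 RPKM, ran from −0.60 to 0.79 with overlap between genotypes in each condition.

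**Figure D4:**
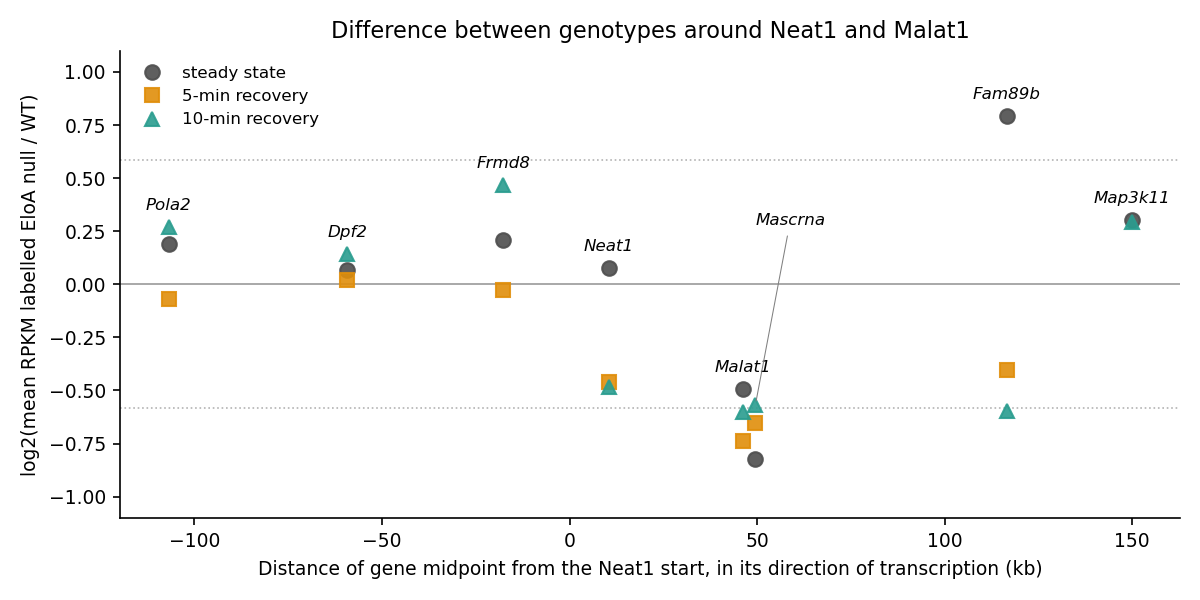
Log2 ratio of mean RPKM, labelled EloA null over WT, for expressed RefSeq genes around Neat1 and Malat1 against the distance of each gene's midpoint from the Neat1 start (kb, along its direction of transcription); circles are steady state, squares 5 min and triangles 10 min of recovery, and the dotted lines mark 1.5-fold. Malat1 and Mascrna lie between −0.82 and −0.49 in every condition, Neat1 near 0 in steady state and near −0.5 in recovery, and most flanking genes between −0.07 and 0.47.

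Genes tied to the pair by function were read from lists that were chosen with earlier results of these data known. Of all expressed genes, 6.24% were past 1.5-fold without overlap in the higher direction and 1.5% in the lower direction in steady state, 4.36% and 4.91% at 5 min, and 8.43% and 2.25% at 10 min. Of 22 genes for paraspeckle proteins, all were expressed and 0 passed 1.5-fold without overlap in any condition, and 0 passed the limma test. Their median log2 ratios were −0.04, −0.06 and −0.07. Rbm14, which is needed to build paraspeckles and was the list's most strongly transcribed gene, measured 36.9 and 36.0 RPKM in WT and 38.6 and 34.6 RPKM in the libraries labelled EloA null in steady state. Hnrnpa1, which encodes an RNA-binding protein of paraspeckles, had a log2 difference of −0.04.

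Of 20 genes for nuclear speckle proteins, 1 was past the limit in steady state, in the higher direction, where 6.24% of all expressed genes were. This was Acin1, whose product belongs to a complex at exon junctions, at 3.97 and 3.70 RPKM in WT and 5.66 and 5.89 RPKM in the libraries labelled EloA null (limma adjusted p = 0.110). None was past it in recovery. The median log2 ratio was 0.00 in steady state, −0.11 at 5 min and 0.01 at 10 min. Srsf3 and Srsf5, splicing factors at 31.3 and 27.9 and at 25.3 and 21.7 RPKM in WT in steady state, had differences of 0.02 and 0.01.

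The list for 3′ end processing held the subunits of RNase P, its RNA Rpph1, the tRNA 3′ enzymes Elac2 and Trnt1, and Mettl16, which binds the Malat1 triple helix. Past the limit in the higher direction were 3 of 15 expressed genes in steady state (6.24% of all), 2 of 14 at 5 min (4.36% of all) and 3 of 15 at 10 min (8.43% of all), and 1 of 15 was in the lower direction, Pop7 in steady state (1.5% of all). Rpp14, an RNase P subunit, was among them in all 3 conditions, with log2 differences of 0.82, 0.61 and 0.81 (limma adjusted p = 0.103, 0.489 and 0.093). Rpp25 and its relative Rpp25l were so in steady state, with 0.66 and 0.83, and at 10 min, with 0.61 and 1.24. Pop7 was lower by −0.89 in steady state and higher by 2.11 at 5 min, at levels of 0 to 1.25 RPKM. Of the enzymes that cut and trim the Malat1 end, Rpph1 had log2 differences of 0.01, −0.18 and −0.10, and Elac2 of −0.17, 0.04 and −0.09. None of the list passed the limma test.

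Most other nuclear long noncoding RNAs stayed within 1.5-fold. Of 12 listed, 9, 9 and 7 were expressed, and Meg3, an imprinted RNA, at 10 min was the only gene past the limit, 1 of 7 where 2.25% of all expressed genes were lower, with 1.09 and 0.869 RPKM in WT and 0.699 and 0.599 RPKM in the libraries labelled EloA null. Lncenc1, a noncoding RNA of naive stem cells, had log2 differences of −0.23, 0.16 and 0.15. Tug1 had −0.34, −0.18 and 0.00. Of the pluripotency markers, 3 of 12 were past the limit in the higher direction in steady state (6.24% of all), Pou5f1, Klf2 and Lin28a. In recovery 0 of 11 were past it in either direction. Leaving the fold aside, 5 of 12 lay higher and 2 lower without overlap in steady state (32% and 21.4% of all). At 5 min 0 of 11 lay higher and 4 lower (15.4% and 25% of all), and at 10 min 4 and 3 (33.5% and 21.8% of all). Of the expressed fibroblast markers, 2 of 4 were past it in the lower direction at 5 min (4.91% of all), Acta2 and Col1a1, and 1 of 4 at 10 min (2.25% of all), Acta2, each at under 1.5 RPKM. Fn1, the most transcribed of that list, had log2 differences of 0.07 in steady state, 0.22 at 5 min and 0.15 at 10 min. Vim had 0.37, −0.03 and 0.00. In steady state Acta2, then under 0.5 RPKM, had −0.58. None of these 3 is a defining marker. Of the defining markers, Col1a1 had −0.09 in steady state and −0.48 at 10 min. Col1a2, Col3a1 and Postn, with means under 0.5 RPKM, had −0.33, −0.38 and −0.41 in steady state. They had −0.44, −0.56 and −0.85 at 5 min and −0.35, −0.51 and −0.51 at 10 min. Dcn and Lum were too near 0 for a ratio. The part of cell composition in the lower Neat1 and Malat1 was not tested.

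**Figure D5:**
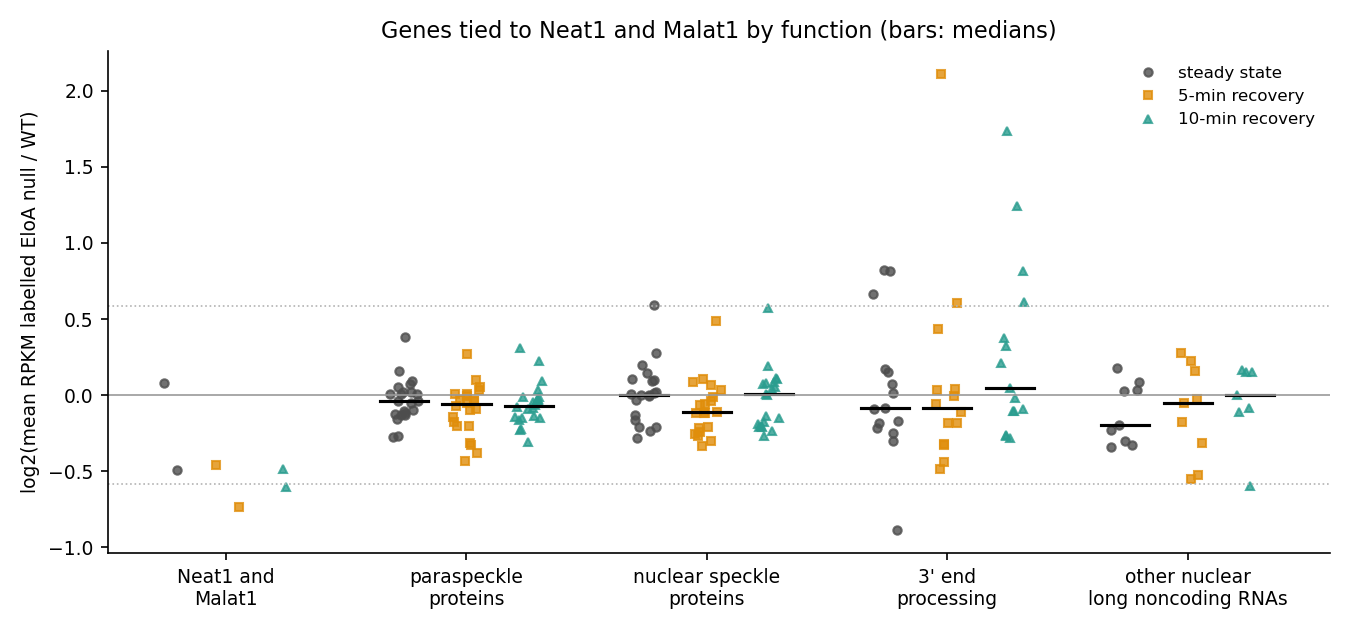
Log2 ratio of mean RPKM, labelled EloA null over WT, for expressed genes of each list and condition; symbols are genes, black bars list medians and dotted lines 1.5-fold. Neat1 and Malat1 lie at −0.74 to −0.46 in recovery, while the drawn medians of the 4 lists lie between −0.20 and 0.05.

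No gene was among the 5 most like Neat1 and also among the 5 most like Malat1 over the 12 libraries. Likeness was the Pearson correlation of log2(RPKM + 0.1) among 2760 genes with a mean above 2 RPKM in each of the 6 groups, and is a description, since libraries share conditions. Closest to Neat1 were Brd2 (r = 0.97), 2410141K09Rik (0.95), U2af2 (0.95), Sqstm1 (0.95) and Gnl2 (0.94). Brd2, a bromodomain protein that reads acetylated histones, had group means of 9.84, 13.6 and 24.2 RPKM in WT and 10.8, 10.1 and 20.9 RPKM in the libraries labelled EloA null in steady state, at 5 and at 10 min, the order seen in Neat1. Closest to Malat1 were Fndc3b (r = 0.98), Hdac4 (0.98), Ahnak (0.97), Rptor (0.97) and Mgat5 (0.97). Ahnak, which encodes a very large scaffold protein, had means of 2.40, 9.82 and 3.50 RPKM in WT and 2.26, 5.39 and 2.89 RPKM in the other genotype, with the 5-min peak seen in Malat1. Between Neat1 and Malat1 themselves r was −0.07.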

How the data were processed

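The authors aligned paired-end Bru-seq reads to mm10 with Bowtie2, which the submitters' processing notes give as 2.3.4.3, kept uniquely aligned reads, counted them over RefSeq genes with featureCounts (1.6.1), normalized with edgeR and deposited RPKM values in 1 table per condition, without pooling replicates. The use of strand in counting is not given in the sources used here, so reads of overlapping genes cannot be told apart. The series' 16 binding assays (CUT&RUN and ChIP) were left out. The study reports EloA enriched at Neat1 by both methods, which was not examined here.

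Library sizes and read numbers were recovered by requiring whole reads (tolerance 0.05) in genes with 1 exon. They served to describe depth and to find which length the RPKM values stand for. No count test was run, since the deposited unit is RPKM. Spliced genes were matched with the summed length of their introns, although the study describes counts over whole genes. Tests ran within 1 table, by limma 3.58.1 in R 4.3.3 on log2(RPKM + 0.1) with an intensity trend over genes with a mean above 0.5 RPKM in either genotype, with Benjamini-Hochberg adjustment. Fold changes on this scale understate those of low genes. Single ratios were compared by exact permutation. Scripts were tested on simulated data. Log2 ratios of means of single genes carry no pseudocount. Medians quoted in the text over all expressed genes or over a list add 0.1 RPKM to each mean, while the bars drawn for the lists do not.

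Neat1, Malat1, the gene lists and the tests were chosen with earlier results of these data known. Named from a list were its genes past 1.5-fold without overlap, at most 4 per comparison, and otherwise the 2 most strongly transcribed. Expressed genes within 100 kb were named too (1 gene of that window is not reported here), along with the 5 most correlated with each member. Brd2 and Ahnak were described further because they led or stood out in these, and Elac2, Rpph1 and Tug1 after their values were seen. Sequences were read from GRCm38. Alternatives covered pseudocounts, filters, centring, the variance model, a replicate block and each library left out.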

Additional observations from a re-analysis of the deposited data

Results flagged for a closer look

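The difference of Neat1 between genotypes changed sign with the condition. In steady state each library labelled EloA null lay above each WT library, with a log2 ratio of means of 0.08. In recovery each lay below, with −0.46 at 5 min and −0.48 at 10 min. The difference between the conditions was not tested, because the recovery contrast was used to choose Neat1, and the steady-state gap between the nearest libraries was small, at 6.42 against 6.44 RPKM. Malat1 was lower in all 3 conditions. Of the genes expressed in both conditions, 2.04% of 8628 were likewise higher without overlap in steady state and lower without overlap at 5 min, and 0.580% of 9824 at 10 min. Brd2, the gene most like Neat1, was among them at both times, but it was picked by likeness to Neat1 over these same libraries. U2af2, picked in the same way, was among them at neither time. The others so picked, 2410141K09Rik, Sqstm1 and Gnl2, had lower means in the libraries labelled EloA null in steady state as well.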

How the results depend on the processing

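Under 13 alternatives, the steady-state limma difference ran from 0.02 to 0.13 for Neat1 (adjusted p 0.496 to 0.922) and from −0.55 to −0.48 for Malat1 (adjusted p 0.111 to 0.655), with no change of direction and no call. Under 8 alternatives, the recovery difference of Neat1 ran from −0.55 to −0.35 at 5 min and from −0.58 to −0.37 at 10 min, and that of Malat1 from −0.95 to −0.55 and from −0.77 to −0.42. With the median gene of each library in place of Malat1, the log2 change of Neat1 from steady state to 5 min was 0.82 in WT and 0.37 in the libraries labelled EloA null (exact permutation p = 0.33 for both), the opposite sign to its ratio to Malat1. The cause is in the construction, since Malat1 itself is then left out.

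Replicate numbers were shared by 2 libraries per genotype and name no common culture. Same-numbered libraries deviated together weakly (r = 0.101, 0.119 and 0.103 in steady state, at 5 and at 10 min). With a replicate block, Malat1 in steady state gave −0.49 (limma adjusted p = 0.116) and Neat1 0.08 (0.702), and the number of genes called at 5 min was 128. It changed no other call.

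Calls across all genes depended on the variance model. Genes past the limma test, 0 in each condition, came to 132, 532 and 264 in steady state, at 5 min and at 10 min with 1 fit of all 12 libraries, to 20, 47 and 49 without the intensity trend, to 81, 29 and 26 with robust variance estimates, and at 10 min to 5 with a pseudocount of 1 and to 12 with each library centred on its median gene, a setting added after seeing the data. Leaving out 1 library gave 0 in steady state, 0 to 90 at 5 min and 0 to 81 at 10 min, with 0 calls at 5 min without the second library labelled EloA null and at 10 min without the first WT library, and at least 49 without each of the others. Genes past 1.5-fold without overlap, 878, 833 and 1093, came to 551, 512 and 711 with a mean above 1 RPKM, and to 246, 292 and 326 with a limit of 2-fold. Depth limits Mascrna, on as few as 24 reads, more than Neat1 or Malat1.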
